A study of Mus musculus with 6 samples.

Results

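Interferon-stimulated genes are the genes that cells switch on when an interferon binds its receptor. A set of 56 of them was followed in BV2 cells, a mouse microglial line that grows without limit in culture, in a count table of 46095 gene symbols. The members were found by their symbols, all 56 were in the table, and 55 had enough counts to be tested. The CON group held 3 libraries of BV2 cells without treatment, and the sTREM-1 group held 3 libraries of cells given recombinant sTREM-1 protein, the soluble form of a receptor of myeloid cells, at 1 μg/mL for 6 h. Both groups were the same cell line, with no genetic change named in the labels. Nothing in the labels says that the libraries came from separate cultures, and the methods give n = 4 where the labels and the table give 3 per group, so that p-values measure the spread between these libraries. In bulk RNA a larger share of responding cells and more RNA per responding cell cannot be told apart.

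The libraries held between 40070633 and 45877107 counts. Of 14 marker genes of microglia and macrophages, Aif1 was listed at 0 in all 6 libraries and Cx3cr1, P2ry12 and Tmem119 had group means under 2 CPM (counts scaled to a common library size), while the rest were abundant. The summed level of the 14 markers was 3440 to 3470 CPM in the CON group and 3720 to 3780 CPM in the sTREM-1 group, and of the 13 that could be tested, 5 were called higher and 1 lower at an adjusted p-value under 0.05 in edgeR, against 16.5% and 14.1% of all tested genes. Csf1r, the receptor for colony-stimulating factor, carried most of that difference, at 521 ± 3.13 CPM without treatment and 753 ± 20.5 CPM with it (SD, n = 3). Of 29 markers of 6 other cell types, 12 were at 0 in all libraries and 27 had group means under 1 CPM. The part of the microglial markers in the results that follow was not tested.

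Type I interferons bind a receptor whose kinases JAK1 and TYK2 phosphorylate STAT proteins. STAT2, with IRF9, is part of the complex that binds the interferon-stimulated response element (ISRE) in the promoters of many antiviral genes, whereas STAT dimers, formed mainly after interferon gamma, bind the gamma-activated site (GAS). In microglia the products of these genes sense foreign or misplaced nucleic acid, block steps of viral growth and feed back on the receptor.

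Promoter sequences are shown because they carry the element by which the gene set is known. In the RefSeq table of GRCm38.p6, which gives 250 bases before to 50 bases after each start, 44 of the 56 members had a window. The ISRE core was searched as GAAA, any 2 bases and GAAA, on both strands, and the GAS core as TTCNNNGAA, which reads the same on both strands. An ISRE core was found for 23 of the 44 members (52.3%) and for 1079 of 27025 genes in the table (3.99%), or in 44.4% of member windows and 3.44% of all windows of the same length. A GAS core was found for 12 of the 44 members (27.3%) and for 9.55% of genes in the table. Repeated cores were common among the members, since 10 of them held 2 or more ISRE cores in 1 window, and in Bst2 and Ifitm3 an ISRE core overlapped a GAS core. A match describes letters in a window and does not show that a factor bound there.

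Stretches of 11 promoters are given 5′ to 3′ on the strand of the gene, with ISRE and GAS cores in capitals. As a check, bases just after the RefSeq start were sought in GENCODE M21 transcripts of the same gene. They were found for all of these genes but Ifit3b and Irgm2. Isg15, the gene of the ubiquitin-like modifier, is shown at chr4:156200819-156200958 (minus strand) because 3 ISRE cores overlap there:
Isg15: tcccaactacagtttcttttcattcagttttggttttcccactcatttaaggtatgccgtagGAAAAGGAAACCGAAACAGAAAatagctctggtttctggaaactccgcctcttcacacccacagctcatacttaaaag
Bst2 at chr8:71537553-71537612 (minus strand) and Gbp7 at chr3:142530226-142530295 (plus strand) are shown as called members with both cores:
Bst2: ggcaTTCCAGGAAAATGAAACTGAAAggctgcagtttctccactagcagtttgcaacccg
Gbp7: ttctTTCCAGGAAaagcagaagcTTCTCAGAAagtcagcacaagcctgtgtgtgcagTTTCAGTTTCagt
Oas1a at chr5:120907528-120907627 and Oas1g at chr5:120887614-120887713 (both minus strand) are near-identical neighbours, with 93 of 100 bases alike in these stretches, and only the Oas1a stretch holds a GAS core:
Oas1a: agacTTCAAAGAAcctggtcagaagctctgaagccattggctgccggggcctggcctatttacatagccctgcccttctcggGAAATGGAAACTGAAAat
Oas1g: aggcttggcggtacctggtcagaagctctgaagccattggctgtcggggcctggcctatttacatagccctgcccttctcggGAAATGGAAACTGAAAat
Ifit1 at chr19:34640769-34640828, Ifit3 at chr19:34583357-34583426 and Ifit3b at chr19:34607753-34607822 (all plus strand) each hold 2 ISRE cores and were not called, and the Ifit3 and Ifit3b stretches were alike in 70 of 70 bases:
Ifit1: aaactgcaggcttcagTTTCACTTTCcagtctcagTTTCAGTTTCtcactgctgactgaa
Ifit3: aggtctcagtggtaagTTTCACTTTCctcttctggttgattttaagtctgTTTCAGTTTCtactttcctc
Ifit3b: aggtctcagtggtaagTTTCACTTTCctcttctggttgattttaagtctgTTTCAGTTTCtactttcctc
Irgm1 at chr11:48871421-48871480 (minus strand) is the member called lower, and its relatives Igtp at chr11:58199492-58199551 and Irgm2 at chr11:58214883-58214942 (both plus strand) were alike in 58 of 60 bases:
Irgm1: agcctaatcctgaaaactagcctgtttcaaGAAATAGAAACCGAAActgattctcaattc
Igtp: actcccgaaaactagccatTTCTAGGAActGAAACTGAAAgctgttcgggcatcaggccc
Irgm2: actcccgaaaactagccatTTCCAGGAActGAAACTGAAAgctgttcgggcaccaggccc

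Compared with the CON group, most of the 55 tested genes were higher after sTREM-1, by small amounts. By edgeR's quasi-likelihood test, adjusted by Benjamini and Hochberg's method over all 14120 tested genes, 37 members were called higher at an adjusted p-value under 0.05, against 16.5% of all tested genes, and 1 member was called lower, against 14.1%. The other 17 members were not called. The median log2 fold change of the members was 0.25, a ratio of 1.19, with quartiles of 0.12 and 0.46, while the median of all tested genes was -0.002 with quartiles of -0.13 and 0.13. A rise of at least 1.5-fold was called for 5 members (Dhx58, Trim30a, Rnf213, Mx1 and Sp100), against 0.921% of all tested genes, and a rise of at least 1.2-fold for 27 members, against 5.92%. In 38 members every sTREM-1 library lay above every CON library, against 21.3% of all tested genes, and in 3 every sTREM-1 library lay below, against 19.4%. The groups overlapped in the other 14.

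**Figure D1:**
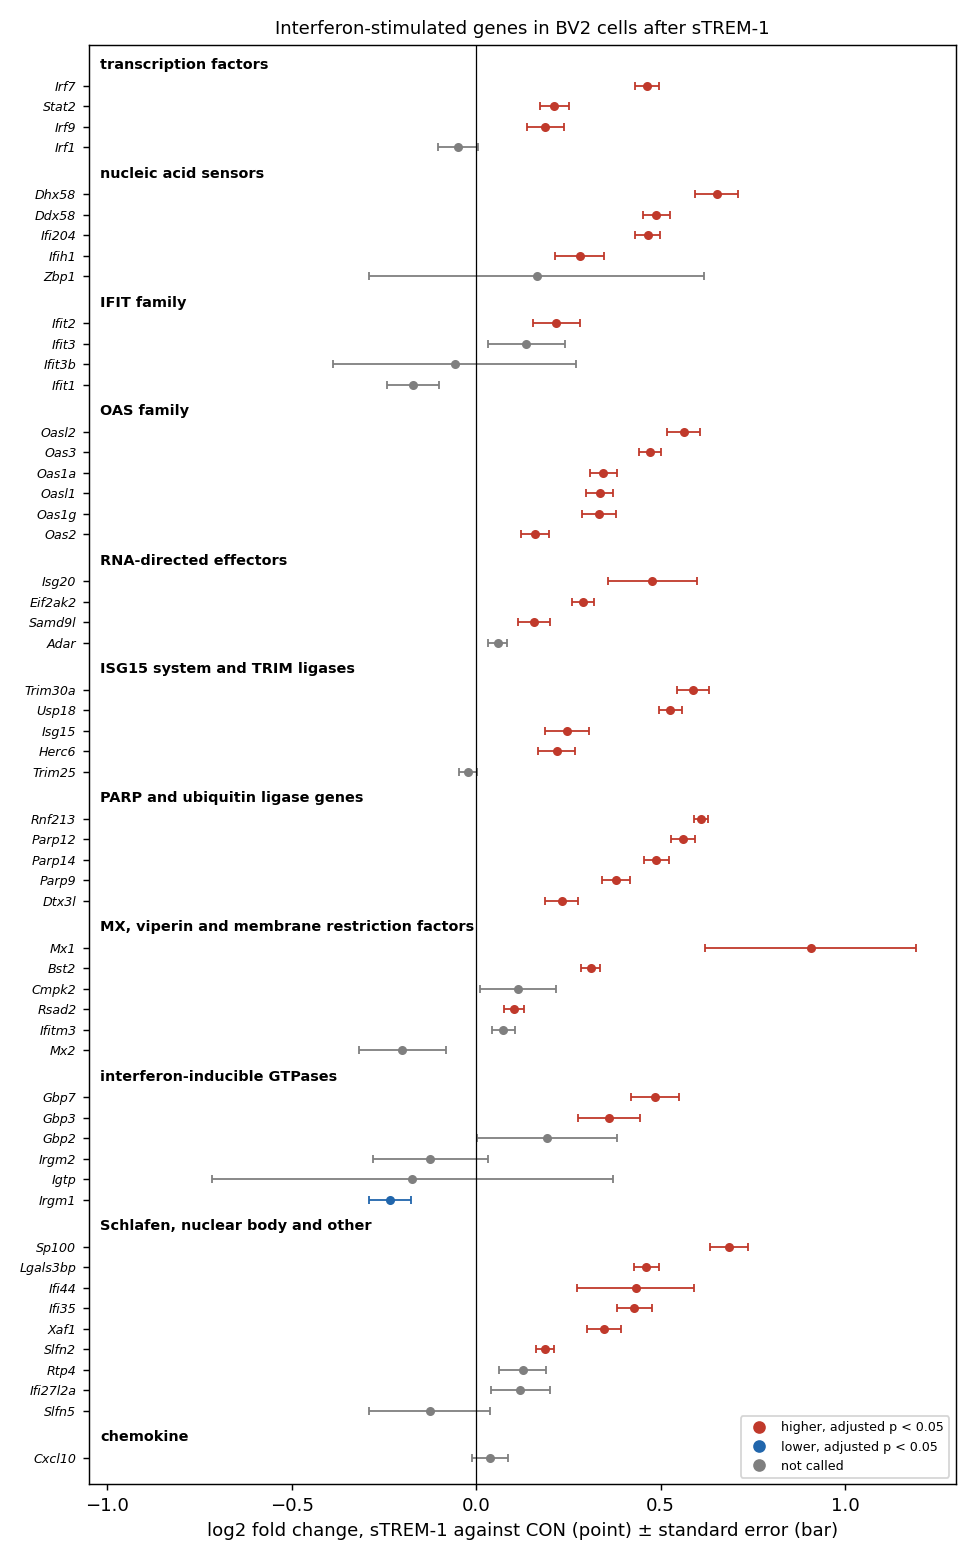
Log2 fold changes of the 55 tested interferon-stimulated genes, sTREM-1 against CON (x axis, point, with the standard error as a bar), grouped by role (y axis) and coloured by call. Of the 55 genes, 37 were called higher, Irgm1 alone was called lower, and the estimates ran from -0.23 to 0.91.

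The shift was seen in each treated library. The median over the members of the log2 ratio to the CON mean, with 0.5 added to each CPM value, was -0.032, 0.029 and -0.015 in the CON libraries and 0.271, 0.255 and 0.26 in the sTREM-1 libraries. All 3 treated libraries lay above all 3 controls on this measure, and they differed from each other by less than the controls did. The summed level of the 56 members was 4137, 4285 and 4196 CPM in the CON libraries and 5317, 5356 and 5311 CPM in the sTREM-1 libraries. Rnf213 was the largest single part of this sum. Without Rnf213 the mean sum was 3410 ± 65.0 CPM for the controls and 4113 ± 17.2 CPM for the treated libraries (SD, n = 3), a ratio of 1.21 in place of 1.27.

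**Figure D2:**
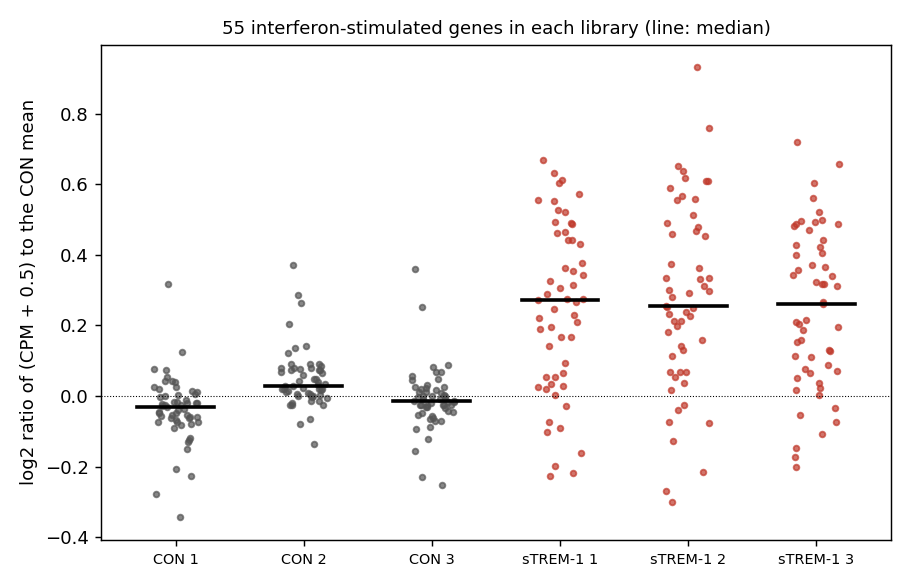
Log2 ratio of each tested member's CPM plus 0.5 to the mean of the CON libraries (y axis) in each of the 6 libraries (x axis), with each point a gene and the line the median. The medians of the 3 sTREM-1 libraries lie between 0.255 and 0.271, above those of the CON libraries, which lie between -0.032 and 0.029.

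Of 4 transcription factors, Stat2, Irf7 and Irf9 were called higher, against 16.5% of all tested genes, and Irf1 was not called. Irf7, the factor that amplifies transcription of interferon alpha genes, had 111, 120.4 and 112 CPM in the CON libraries and 154, 157 and 162 CPM in the sTREM-1 libraries. The groups did not overlap, and its log2 fold change was 0.46 ± 0.03 (SE, edgeR adjusted p = 2.1e-12). Stat2, whose protein carries the activation domain of the complex that binds the ISRE, had 65.1, 68.7 and 68.3 CPM in the CON libraries and 77.3, 81.9 and 74.9 CPM in the sTREM-1 libraries. Its groups were also apart, with a smaller log2 fold change of 0.21 ± 0.04 (SE, edgeR adjusted p = 9.5e-05). Irf9, the DNA-binding subunit of that complex, had 45.0, 46.3 and 45.8 CPM in the CON libraries and 47.5, 56 and 52.8 CPM in the sTREM-1 libraries. Treated library 1 was close to the controls, and the log2 fold change of 0.19 ± 0.05 (SE, edgeR adjusted p = 0.00376) fell to 0.13 (adjusted p = 0.0573) without sTREM-1 replicate 2. Irf1, a factor that interferon gamma induces, had a log2 fold change of -0.05 with a 95% interval from -0.16 to 0.06 (edgeR adjusted p = 0.537).

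Among 5 nucleic acid sensors, 4 were called higher, against 16.5% of all tested genes, and the median log2 fold change of the 5 was 0.47. Ddx58, the gene of the RNA helicase RIG-I, had 65.8, 69.7 and 69.5 CPM in the CON libraries and 96.1, 95.4 and 96.4 CPM in the sTREM-1 libraries. The treated libraries were tightly grouped and lay well above the controls, with a log2 fold change of 0.49 ± 0.04 (SE, edgeR adjusted p = 3.9e-12). Ifi204, a member of the HIN-200 family that binds DNA, had 104, 110.4 and 106 CPM in the CON libraries and 150.5, 150.1 and 142 CPM in the sTREM-1 libraries. These groups did not overlap either, and the log2 fold change was 0.47 ± 0.03 (SE, edgeR adjusted p = 2.0e-12). Dhx58, the gene of LGP2, a helicase that regulates RIG-I and MDA5, had 20.8, 23.1 and 22.2 CPM in the CON libraries and 32.5, 34.9 and 36.5 CPM in the sTREM-1 libraries. Dhx58 rose 1.57-fold, with a log2 fold change of 0.65 ± 0.06 (SE, edgeR adjusted p = 4.4e-10) and groups far apart. Ifih1, the gene of the RNA helicase MDA5, rose by 0.28 ± 0.07 (SE) on the log2 scale (edgeR adjusted p = 0.00165). Zbp1, a sensor of Z-form nucleic acid, had only 16, 17 and 12 counts in the controls and 25, 16 and 12 counts after sTREM-1, and these overlapped (edgeR adjusted p = 0.835).

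The 4 IFIT genes, of a family of antiviral proteins, stood at a median log2 fold change of 0.04. Only Ifit2 was called, so that 25% of the list was called higher, against 16.5% of all tested genes. Ifit2 had 23.3, 27.4 and 27.2 CPM in the CON libraries and 32.1, 30.0 and 28.3 CPM in the sTREM-1 libraries. The groups did not overlap, but the lowest treated library was close to the highest control, and the log2 fold change of 0.22 ± 0.06 (SE, edgeR adjusted p = 0.00902) fell to 0.14 (adjusted p = 0.112) without CON replicate 1 and to 0.17 (adjusted p = 0.0875) without sTREM-1 replicate 1. Ifit1, often used as a readout of type I interferon, had 20.2, 19.0 and 18.3 CPM in the CON libraries and 16.6, 17.5 and 16.9 CPM in the sTREM-1 libraries. Every treated library lay below every control, in the direction opposite to most members, and the log2 fold change was -0.17 with a 95% interval from -0.31 to -0.03 (edgeR adjusted p = 0.0672). Ifit3 had 6.96, 7.85 and 7.25 CPM in the CON libraries and 7.49, 8.68 and 8.09 CPM in the sTREM-1 libraries, which overlapped (edgeR adjusted p = 0.363). Ifit3b, a near-identical copy, was lower still in count and overlapped as well, with a log2 fold change of -0.06 ± 0.33 (SE, edgeR adjusted p = 0.926).

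All 6 genes of the OAS family were called higher, against 16.5% of all tested genes. In each of the 6, every sTREM-1 library lay above every CON library, against 21.3% of all tested genes. The family encodes oligoadenylate synthetases, whose product activates RNase L, and 2 relatives that carry a like domain, Oasl1 and Oasl2. Oas3 had 136, 146 and 139 CPM in the CON libraries and 194, 194 and 196 CPM in the sTREM-1 libraries. Its treated libraries differed little, and its log2 fold change was 0.47 ± 0.03 (SE, edgeR adjusted p = 1.9e-13). Oasl2 had 42.4, 45.6 and 41.7 CPM in the CON libraries and 64.5, 66.1 and 60.8 CPM in the sTREM-1 libraries. It had the highest log2 fold change of the family at 0.56 ± 0.05 (SE, edgeR adjusted p = 2.8e-11), while Oas2 had the lowest at 0.16 ± 0.04 (SE, edgeR adjusted p = 0.00167). Oas1a had 67.6, 72.6 and 71.8 CPM in the CON libraries and 91.9, 89.2 and 88.3 CPM in the sTREM-1 libraries (edgeR adjusted p = 1.2e-08). Oas1g and Oasl1 rose by like amounts, with log2 fold changes of 0.33 (edgeR adjusted p = 1.3e-06) and 0.34 (edgeR adjusted p = 2.0e-08). Of the 50-base stretches of the longest Oas1a transcript, 57.6% also occurred in other genes, mostly Oas1g. Reads from such stretches may have been split or merged, so that these 2 genes cannot be taken as independent measurements.

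Of 4 effectors that act on RNA or translation, Eif2ak2, Isg20 and Samd9l were called higher, against 16.5% of all tested genes. Eif2ak2, the gene of the kinase PKR, which shuts off translation, had 122, 123 and 122 CPM in the CON libraries and 148, 154 and 147 CPM in the sTREM-1 libraries. The groups were apart, with a log2 fold change of 0.29 ± 0.03 (SE, edgeR adjusted p = 6.4e-09). Isg20, an RNA exonuclease, had 5.30, 4.998 and 4.75 CPM in the CON libraries and 6.17, 7.67 and 7.13 CPM in the sTREM-1 libraries. It was much less abundant than Eif2ak2 and its error was wider, at a log2 fold change of 0.48 ± 0.12 (SE, edgeR adjusted p = 0.00247). Samd9l, which restricts translation in infected cells, had 54.3, 51.8 and 52.2 CPM in the CON libraries and 58.2, 62.0 and 56.1 CPM in the sTREM-1 libraries. Its groups were apart by a narrow margin, and the log2 fold change of 0.16 ± 0.04 (SE, edgeR adjusted p = 0.00586) fell to 0.11 (adjusted p = 0.0655) without sTREM-1 replicate 2. Adar, the enzyme that edits adenosine in double-stranded RNA, lay above the controls in every treated library but by 0.06 ± 0.03 (SE) on the log2 scale, and it was not called (edgeR adjusted p = 0.0857).

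In the group of the ISG15 system and TRIM ligases, 4 of 5 genes were called higher, against 16.5% of all tested genes. Usp18, the protease that removes ISG15 from proteins and dampens the type I receptor, had 97.9, 98.4 and 94.8 CPM in the CON libraries and 140, 143 and 137 CPM in the sTREM-1 libraries. The groups were far apart against a spread of a few CPM, and the log2 fold change was 0.53 ± 0.03 (SE, edgeR adjusted p = 5.8e-14). Trim30a, a TRIM protein that restrains inflammatory signalling, had 41.3, 43.4 and 41.3 CPM in the CON libraries and 65.4, 63.5 and 60.4 CPM in the sTREM-1 libraries. Trim30a rose 1.503-fold, just past the 1.5-fold mark, with a log2 fold change of 0.59 ± 0.04 (SE, edgeR adjusted p = 5.6e-12). Herc6, the main ligase of ISG15 in mice, had 29.5, 29.5 and 30.3 CPM in the CON libraries and 34.9, 34.2 and 34.6 CPM in the sTREM-1 libraries, with no overlap (edgeR adjusted p = 0.00106). Isg15 itself had a mean of 23.2 ± 1.201 CPM in the controls and 27.5 ± 0.557 CPM in the treated libraries (SD, n = 3), with a log2 fold change of 0.25 ± 0.06 (SE, edgeR adjusted p = 0.00179). The protease Usp18 thus had a higher log2 fold change than the modifier and the ligase, a difference that was not tested. Trim25, the ubiquitin ligase that activates RIG-I, was the exception, with a log2 fold change of -0.02 and a 95% interval from -0.07 to 0.03 (edgeR adjusted p = 0.556).

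All 5 PARP and ubiquitin ligase genes were called higher, against 16.5% of all tested genes, with a median log2 fold change of 0.49. In all 5, every sTREM-1 library lay above every CON library, against 21.3% of all tested genes. Rnf213, a very large ubiquitin ligase, had 782, 804 and 803 CPM in the CON libraries and 1211, 1223 and 1211 CPM in the sTREM-1 libraries. It had the smallest p-value of all members, with a 1.53-fold rise and a log2 fold change of 0.61 ± 0.02 (SE, edgeR adjusted p = 1.1e-19). Parp12, a mono-ADP-ribosyltransferase, had 70.9, 72.8 and 71.8 CPM in the CON libraries and 106, 106 and 106 CPM in the sTREM-1 libraries. Its libraries differed by less than 2 CPM within each group, and its log2 fold change was 0.56 ± 0.03 (SE, edgeR adjusted p = 5.8e-14). Parp14, another ADP-ribosyltransferase, had 108, 114 and 116 CPM in the CON libraries and 163, 161 and 151 CPM in the sTREM-1 libraries, with a log2 fold change of 0.49 ± 0.03 (SE, edgeR adjusted p = 1.3e-12). Parp9 and Dtx3l, whose proteins form a complex, rose by 0.38 ± 0.04 (SE, edgeR adjusted p = 3.3e-09) and 0.23 ± 0.05 (SE, edgeR adjusted p = 1.5e-04) on the log2 scale. These neighbours overlap on opposite strands over 9.4% of the exon bases of Parp9, and whether the authors counted by strand is not given in the sources used here.

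**Figure D3:**
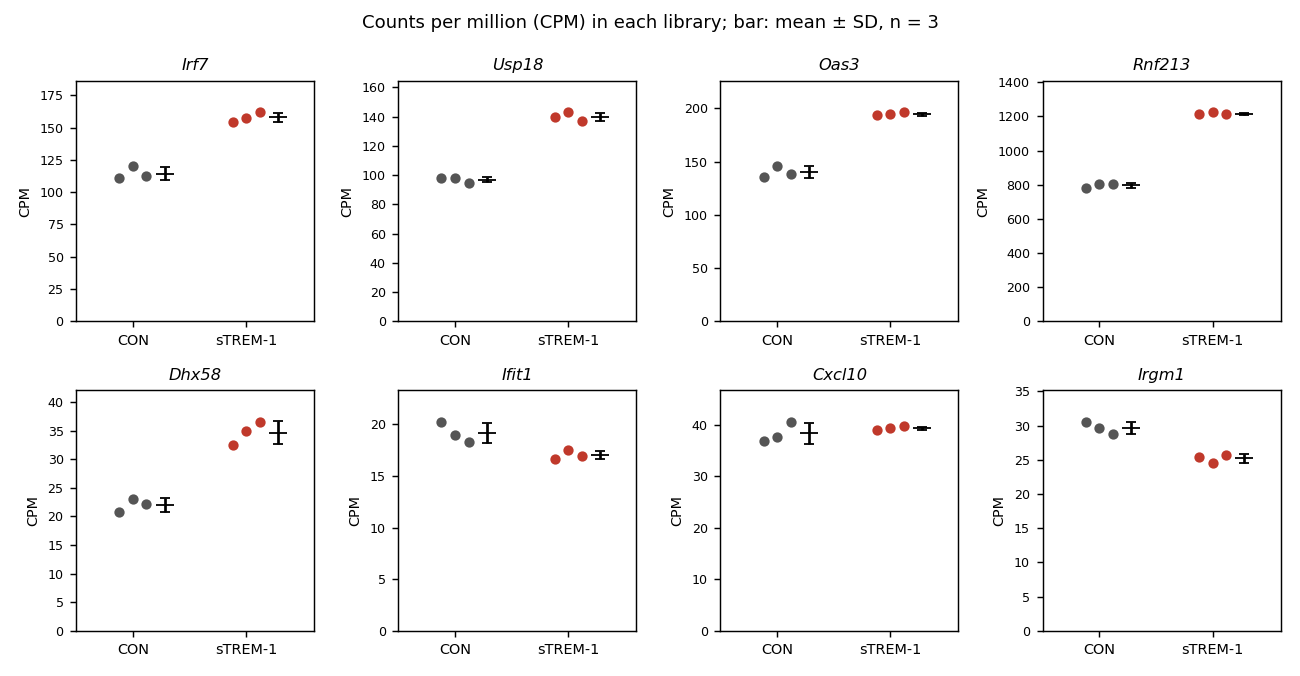
CPM levels (y axis, from 0) of 8 members in the CON and sTREM-1 libraries (x axis), with each point a library and the bar the mean ± SD (n = 3). Irf7, Usp18, Oas3, Rnf213 and Dhx58 lie higher in every sTREM-1 library than in any CON library, Ifit1 and Irgm1 lie lower, and the groups of Cxcl10 overlap.

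The MX, viperin and membrane factors were divided, with 3 of 6 called higher, against 16.5% of all tested genes. Bst2, the gene of tetherin, which holds budding virus at the cell surface, had 212, 221 and 211 CPM in the CON libraries and 267, 265 and 268 CPM in the sTREM-1 libraries. The groups were apart, with a log2 fold change of 0.31 ± 0.03 (SE, edgeR adjusted p = 8.7e-11). Rsad2, the gene of viperin, an enzyme that makes a chain-terminating nucleotide, had 152, 152 and 151 CPM in the CON libraries and 159, 166 and 164 CPM in the sTREM-1 libraries. The groups did not overlap, but the log2 fold change was only 0.10 ± 0.03 (SE, edgeR adjusted p = 0.00601). Mx1, a dynamin-like GTPase that restricts influenza virus, had 33, 51 and 32 counts in the controls and 81, 95 and 52 counts after sTREM-1. These are among the lowest counts of any tested member, and Mx1 also had the highest log2 fold change, 0.91 ± 0.29 (SE, edgeR adjusted p = 0.0156). The call of Mx1 was lost without CON replicate 1 (0.80, adjusted p = 0.0655), without CON replicate 3 (0.79, adjusted p = 0.0707) and without sTREM-1 replicate 2 (0.71, adjusted p = 0.122). Its relative Mx2 lay the other way, with every sTREM-1 library below every CON library and a log2 fold change of -0.20 ± 0.12 (SE, edgeR adjusted p = 0.226). Cmpk2, a nucleotide kinase, was not called (edgeR adjusted p = 0.46). Ifitm3, which blocks the entry of enveloped virus, was not called either (0.07, edgeR adjusted p = 0.086) but passed without CON replicate 2 (0.11, adjusted p = 0.00926) and in a fit blocked by replicate number (0.08, adjusted p = 0.0449), while it stood at 0.04 (adjusted p = 0.449) without CON replicate 3.

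The interferon-inducible GTPases included the member called lower. These proteins attack the vacuoles of intracellular parasites and bacteria, and much of their transcription answers to interferon gamma. Of 6 tested genes, Gbp3 and Gbp7 were called higher, Irgm1 was called lower, and Gbp2, Igtp and Irgm2 were not called. That was 33.3% of the list higher and 16.7% lower, against 16.5% and 14.1% of all tested genes. In the share called lower the list did not stand apart. Irgm1, a regulatory GTPase of the family, had 30.6, 29.6 and 28.8 CPM in the CON libraries and 25.4, 24.5 and 25.7 CPM in the sTREM-1 libraries. Every treated library lay below every control, and Irgm1 fell by 0.23 on the log2 scale with a 95% interval from -0.34 to -0.12 (edgeR adjusted p = 0.00161). Gbp7 had 19.98, 19.9 and 19.4 CPM in the CON libraries and 25.5, 30.5 and 27.0 CPM in the sTREM-1 libraries. It rose by 0.49 ± 0.07 (SE) on the log2 scale with no overlap (edgeR adjusted p = 1.1e-06). Gbp3 had 15.2, 13.1 and 13.4 CPM in the CON libraries and 19.7, 16.4 and 17.3 CPM in the sTREM-1 libraries (edgeR adjusted p = 0.00117). Gbp3 and Gbp7 thus moved opposite to Irgm1, while Gbp2, the other guanylate-binding protein gene, had a log2 fold change of 0.19 ± 0.19 (SE, edgeR adjusted p = 0.497) and groups that overlapped. Igtp had 5, 14 and 18 counts in the controls and 8, 14 and 12 counts after sTREM-1, too few to show a change of this size (edgeR adjusted p = 0.855). Iigp1, with 10, 8 and 3 counts in the controls and 2, 10 and 2 counts after sTREM-1, was the member that could not be tested.

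Of 9 Schlafen, nuclear body and other genes, 6 were called higher, against 16.5% of all tested genes, and 3 were not called. Sp100, a scaffold of the nuclear bodies that restrict DNA viruses, had 28.7, 31.7 and 29.2 CPM in the CON libraries and 45.9, 50.8 and 47.3 CPM in the sTREM-1 libraries. Sp100 rose 1.61-fold with groups far apart, a log2 fold change of 0.69 ± 0.05 (SE, edgeR adjusted p = 8.3e-12). Lgals3bp, a secreted glycoprotein that binds galectins, had 87.6, 90.9 and 95.7 CPM in the CON libraries and 124, 125 and 128 CPM in the sTREM-1 libraries. Its groups were also apart, with a log2 fold change of 0.46 ± 0.03 (SE, edgeR adjusted p = 5.6e-12). Ifi35 had 33.1, 34.2 and 34.8 CPM in the CON libraries and 47.2, 44.3 and 46.02 CPM in the sTREM-1 libraries, a log2 fold change of 0.43 ± 0.05 (SE, edgeR adjusted p = 1.8e-08). Xaf1, a partner of apoptosis inhibitors, rose by 0.35 (edgeR adjusted p = 7.1e-07) and Slfn2, which keeps immune cells quiescent, by 0.19 (edgeR adjusted p = 9.3e-07) on the log2 scale. Ifi44 had 121, 150 and 132 counts in the controls and 178, 229 and 160 counts after sTREM-1. In CPM the groups did not overlap, but its log2 fold change of 0.43 ± 0.16 (SE, edgeR adjusted p = 0.0379) was the weakest call. It was lost without CON replicate 1 (0.36, adjusted p = 0.129), without CON replicate 3 (0.42, adjusted p = 0.0846), without sTREM-1 replicate 2 (0.27, adjusted p = 0.289) and in DESeq2 (0.43, adjusted p = 0.0522). Slfn5, Rtp4 and Ifi27l2a were not called, with log2 fold changes of -0.13, 0.13 and 0.12.

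Cxcl10, the chemokine of the set, draws T cells and is a common readout of interferon signalling. It had 36.9, 37.6 and 40.6 CPM in the CON libraries and 39.1, 39.3 and 39.7 CPM in the sTREM-1 libraries. All treated libraries lay inside the range of the controls, and the log2 fold change was 0.04 with a 95% interval from -0.06 to 0.13 (edgeR adjusted p = 0.617).

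The members were already transcribed in the CON group over a wide range. Levels were compared between genes per length, as mean CON CPM per kilobase of exons in the GENCODE M21 annotation. Bst2 was the highest at 238 ± 6.05 CPM per kilobase (SD, n = 3), followed by Ifitm3 at 209 ± 10.6, and these neighbours in the order were apart by more than their SDs. Slfn2 stood next at 140 ± 2.46 CPM per kilobase, Trim25 followed at 61.7 ± 0.773 and Rnf213 at 47.1 ± 0.741. Rsad2 at 34.9 ± 0.16 and Usp18 at 34.8 ± 0.688 did not differ beyond their spread. At the low end were Mx1 at 0.249, Igtp at 0.149, Zbp1 at 0.104 and Iigp1 at 0.0293 CPM per kilobase. Among all tested genes, at any level, 16.5% were called higher and 14.1% lower. Of the 27 tested members at 10 CPM per kilobase or more, 21 were called higher and the median log2 fold change was 0.33. For the 22 genes from 1 to 10 CPM per kilobase, 14 were called higher, 1 lower, and the median was 0.22, and for the 6 genes under 1 CPM per kilobase, 2 were called higher and the median was 0.05. Across the 55 genes, which share the same 6 libraries, Spearman's rho between level and log2 fold change was 0.15.

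**Figure D4:**
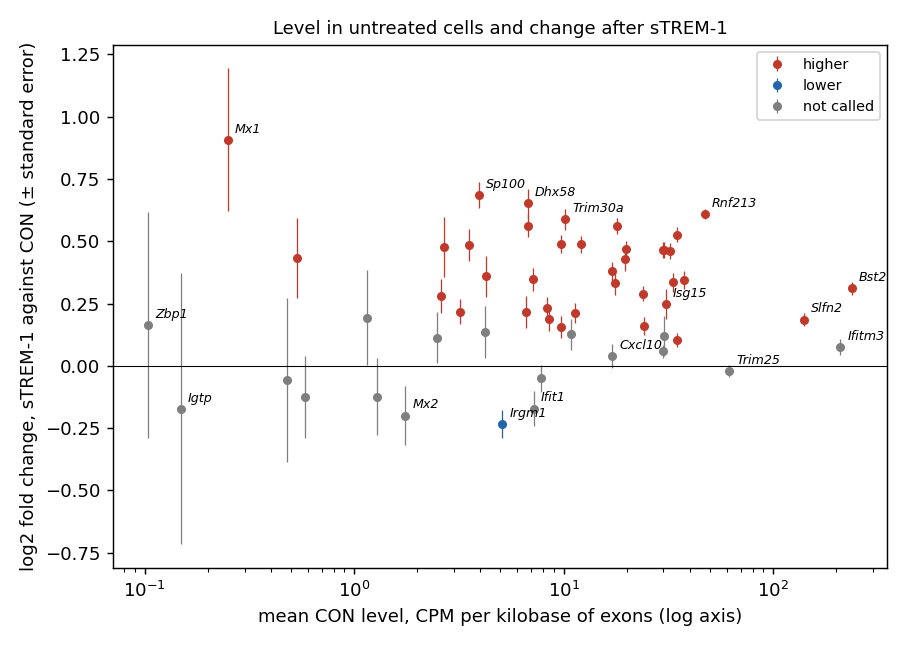
Log2 fold change with its standard error (y axis) against the mean CON level in CPM per kilobase of exons (x axis, log scale) for the 55 tested members, coloured by call. Genes called higher occur at every level, and the longest bars are those of Igtp, Zbp1, Ifit3b and Mx1, all under 1 CPM per kilobase.

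Some members share sequence with other genes, and the counts of these are uncertain. Over 25% of the 50-base stretches of their longest transcripts occurred in other genes for 5 members. For Ifit3 the share was 51.2% and for Ifit3b 45.0%, mostly with each other, and for Ifi204 it was 30.2%. Over 10% was shared in 12 members. Rnf213, the most abundant member in CPM, shared 5.05% with a gene on the other strand.

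The median log2 fold change of members with an ISRE core in the promoter window was below that of members without one. Of the 23 with an ISRE core, 13 were called higher, 1 was called lower and 9 were not called, with a median log2 fold change of 0.21. Of the 21 without it, 17 were called higher and 4 were not, with a median of 0.34. Among all tested genes, 16.5% were called higher and 14.1% lower. The genes whose sequences were printed above were on both sides, since Oas1a, Oas1g, Bst2, Gbp7 and Isg15 rose, Irgm1 fell, and Ifit1, Ifit3, Ifit3b, Igtp and Irgm2 were not called. By both motifs, the 7 genes with ISRE and GAS cores had a median of 0.29, the 16 with an ISRE core alone 0.20, the 5 with a GAS core alone 0.22 and the 16 with neither 0.34. A gene without a match may still hold the element in a variant spelling or outside the window, and members without a window are left out. These medians are descriptions, and the differences between them were not tested.

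**Figure D5:**
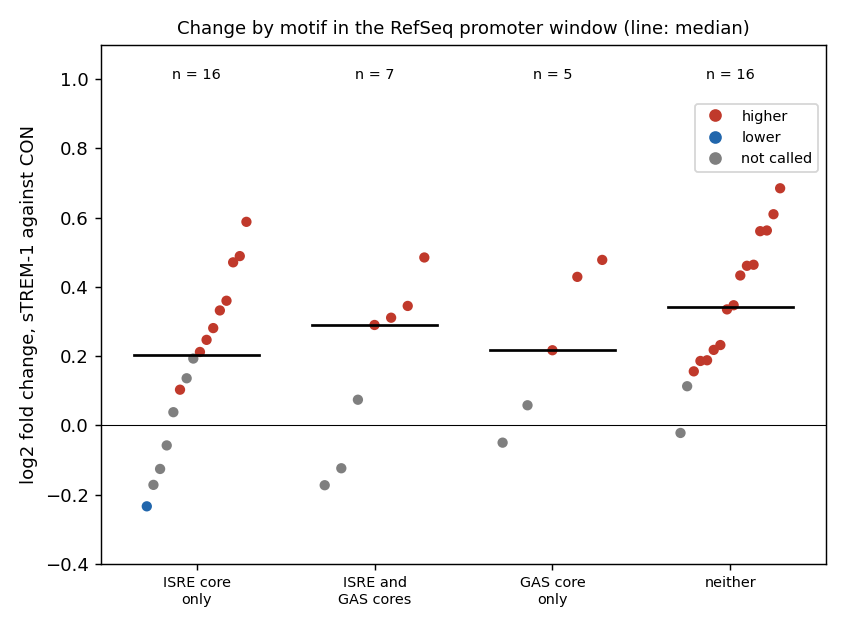
Log2 fold changes of the 44 members with a RefSeq promoter window (y axis), split by the motif cores found in it (x axis), with each point a gene coloured by call and the line the median. The 4 medians lie between 0.20 and 0.34, with the highest in the 16 genes that hold neither core.

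The rest of the pathway was read from lists of non-member genes. None of 16 interferon ligand genes had enough counts to be tested. Ifnb1, the gene of interferon beta, had 11, 5 and 8 counts in the controls and 3, 8 and 17 counts after sTREM-1, which overlapped, and the other 15 ligand genes together had at most 3 counts in any library. A count of 0 allows up to 3 counts, or 0.0657 to 0.0756 CPM in these libraries, for counting error alone.

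Of 9 receptor and JAK genes, 5 were called higher and none lower in edgeR, against 16.5% and 14.1% of all tested genes (7 higher and 0 lower at an unadjusted p under 0.05, a mark that 20.4% of all tested genes passed higher and 18.4% lower). The receptor subunits Ifngr2 and Ifnar2 and the kinase Tyk2 rose by 0.15 (edgeR adjusted p = 0.00111), 0.16 (edgeR adjusted p = 0.00174) and 0.20 (edgeR adjusted p = 0.00329) on the log2 scale. Ifngr1, the other subunit of the interferon gamma receptor, rose by 0.20 (edgeR adjusted p = 0.00514). Of 16 adaptors, kinases, toll-like receptors and other factors upstream of the ligands, 10 were called higher and none lower (11 and 0 at an unadjusted p under 0.05, against 20.4% and 18.4% of all tested genes). Tlr7 (0.37, edgeR adjusted p = 7.6e-09) and Tlr3 (0.36, edgeR adjusted p = 1.4e-04), receptors of RNA in endosomes, Ikbke (0.24, edgeR adjusted p = 2.4e-06), a kinase of interferon regulatory factors, and Mavs (0.28, edgeR adjusted p = 1.2e-05), the adaptor of RIG-I, had the smallest p-values.

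Of 6 tested negative regulators, the phosphatase gene Ptpn6 alone was called higher, by 0.11 on the log2 scale (edgeR adjusted p = 0.00114), and none was called lower (1 higher and 2 lower at an unadjusted p under 0.05, against 20.4% and 18.4% of all tested genes). With 16.7% of the list called higher against 16.5% of all tested genes, the regulators did not stand apart in this count. Socs3, an inhibitor of cytokine receptors, had a log2 fold change of -0.09 (edgeR adjusted p = 0.0566) and lay close to the threshold. It passed without CON replicate 1 (-0.11, adjusted p = 0.0498) and stood at -0.07 (adjusted p = 0.212) without sTREM-1 replicate 2. Trim24, a transcriptional repressor of interferon signalling, had -0.14 (edgeR adjusted p = 0.0899) and passed without sTREM-1 replicate 2 (-0.19, adjusted p = 0.0398), but stood at -0.075 (adjusted p = 0.461) without sTREM-1 replicate 1. Pias1, an inhibitor of STAT signalling, had 0.07 (edgeR adjusted p = 0.262).

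A further list of 69 interferon-stimulated genes that are not members had 56 tested genes, of which 31 were called higher, against 16.5% of all tested genes, and 1 lower, against 14.1%. Their median log2 fold change was 0.27, beside 0.25 for the members, and 5 were called with a rise of at least 1.5-fold, against 0.921% of all tested genes. Among the 5 was Psmb9, an immunoproteasome subunit gene with 16, 4 and 4 counts in the controls and 6, 96 and 14 counts after sTREM-1. The groups overlapped, and the log2 fold change of 2.20 (edgeR adjusted p = 0.0129) fell to 0.28 (adjusted p = 0.841) without sTREM-1 replicate 2, and the call was also lost without CON replicate 3 (1.89, adjusted p = 0.0819). Mnda (0.77, edgeR adjusted p = 1.4e-12) and Mndal (0.51, edgeR adjusted p = 5.8e-12), relatives of Ifi204, Ly6e (0.39, edgeR adjusted p = 4.9e-12), a surface protein that hinders virus entry, and Lgals9 (0.41, edgeR adjusted p = 5.4e-11), a galectin, had the smallest p-values. The gene called lower was Nlrc5, the transactivator of MHC class I genes, with 164, 170.5 and 176 CPM in the CON libraries and 151, 154 and 154 CPM in the sTREM-1 libraries. Its groups did not overlap, at a log2 fold change of -0.16 ± 0.03 (SE, edgeR adjusted p = 1.2e-04). Nlrc5 and Irgm1 were thus the 2 interferon-stimulated genes called lower among the members and this list.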

How the data were processed

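RNA of BV2 cells was sequenced in 3 CON and 3 sTREM-1 libraries, grouped by the titles in the labels. According to the methods, total RNA was extracted with Trizol, FastQC served to check the reads, RSEM to quantify them and edgeR to compare the groups. The submitters' processing notes name HISAT2 2.0.4 and the human builds hg19 and GRCh38. The mouse build, the annotation and the strand setting are not given in the sources used here. The table that the authors deposited holds raw counts in whole numbers for 46095 gene symbols, of which 23335 were at 0 in all libraries. Reads of near-identical, overlapping and antisense genes may therefore have been split or merged.

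Genes of few counts were removed by filterByExpr with a minimum count of 10, library sizes were scaled by TMM, and the groups were compared in R 4.3.3 with edgeR 4.0.16 (quasi-likelihood test, no covariates). A gene was called where its p-value, adjusted over 14120 genes by the Benjamini-Hochberg method, was under 0.05. The standard error is the log2 fold change divided by the square root of F. CPM values are relative to the TMM-scaled library size. The biological coefficient of variation was 3.99%. Libraries of 1 group differed by more than sampling noise (chi-square per gene 3.47 to 5.02, against 20.3 to 22.3 between groups), so that none was counted as a repeat. The procedure was tested on simulated data.

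The members and lists were chosen with earlier results of these data known, so no test over a list was run. Library values are given for at most 3 members of each role group, those of smallest p-value, for the member called lower and for members of few counts. Of other lists, the 4 genes of smallest p-value are named, apart from a gene that is not reported here and was left out of the receptor list, and Nlrc5, Psmb9 and the other genes named beside them were chosen after their values were seen. Promoters come from RefSeq GRCm38.p6, exon lengths and shared 50-base stretches from GENCODE M21. Alternatives were scaling by RLE size factors, keeping all genes with counts, keeping genes with at least 10 counts in every library, DESeq2 1.42.0, the exact test of edgeR, a fit with a replicate block, other thresholds and leaving out each library.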

Additional observations from a re-analysis of the deposited data

How the results depend on the processing

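No called member changed direction under any alternative run. Among the members not called, 6 changed sign when a library was left out: Ifit3b (0.216 without CON replicate 1), Slfn5 (0.036 without CON replicate 2), Cmpk2 (-0.001), Igtp (0.201) and Irgm2 (0.101) without CON replicate 3, and Zbp1 (-0.11) and Igtp (0.066) without sTREM-1 replicate 1. Of the 38 called members, 33 kept their call in all 6 fits that left out 1 library (Irf9, Ifit2, Samd9l, Mx1 and Ifi44 did not), and 37 kept it with RLE size factors, both filters, DESeq2, the exact test and the block (Ifi44 did not, in DESeq2). The number of members called higher was 37 and ranged from 33 to 38 with a library left out. A 1.5-fold minimum left 5 higher and 0 lower. The number called lower was 1 in every fit without a library. The median log2 fold change of the members, 0.247, ranged from 0.216 to 0.291 without a library and was 0.261 with at least 10 counts in every library, a filter that leaves out the genes of fewest counts. Of the other interferon-stimulated genes, 31 were called higher (27 to 33 without a library, 5 at 1.5-fold) and 1 lower (1 to 2 without a library, 2 with at least 10 counts in every library, 0 at 1.5-fold). Of receptor, sensing and regulator genes, 16 were called higher (13 to 16 without a library, 0 at 1.5-fold) and 0 lower (0 to 1 without a library). That count was 1, Socs3, with RLE size factors (-0.097, adjusted p = 0.0488) and with at least 10 counts in every library (-0.097, adjusted p = 0.0439). The cause of these shifts was not tested.

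Deviations of same-numbered libraries did not correlate (-0.009, -0.012 and 0.003), so that no pairing by number was seen in the counts. The labels do not say whether same-numbered libraries were handled together, and these correlations cannot decide it. With the replicate block, 38 members were called higher and 1 lower, the median was 0.248, 2 of the other interferon-stimulated genes were called lower and 32 higher, and 16 receptor, sensing and regulator genes were called higher and 1 lower (Socs3, -0.094, adjusted p = 0.0455).

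With 3 libraries per group from 1 cell line, 1 dose and 1 time, the values describe these libraries. Counting error limits Zbp1, Igtp, Iigp1, Ifit3b and Mx1, whose counts were few, and their changes were not detectable or rest on wide errors at this depth.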
